A study of Mus musculus with 24 samples.

Results

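The Notch receptors of B cells and the genes that carry or report their signal were followed in 24 RNA-seq libraries of mouse lymph node B cells from mice with a deletion of the gene for PU.1, SpiB or both. The 9 genes were Notch1 and Notch2, the nuclear genes Rbpj, Maml1 and Maml2, the targets Dtx1 and Hes1, and Cd9 and Cd1d1, whose proteins mark the surface of marginal zone B cells. They were taken by symbol from the deposited raw count tables, which hold 27179 genes, and all 9 passed the filter on low counts at every stage. PU.1 and SpiB are closely related ETS transcription factors encoded by Spi1 and Spib.

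The libraries covered 4 genotypes at 3 stages with 2 biological replicates in each of the 12 groups. Control mice carried the Cd23-Cre transgene alone (Cd23T/+), and PU.1 cKO mice were Spi1fl/fl Cd23T/+. SpiB KO mice were Spi1fl/fl Cd23+/+ Spib-/- and so had floxed Spi1 but no Cre, and PU.1 SpiB DKO mice were Spi1fl/fl Cd23T/+ Spib-/-. All mice were C57BL/6 of 6-20 weeks, and the B cells were CD3- B220+ CD138- cells sorted from lymph nodes, a source chosen because it leaves out marginal zone B cells. Cells were naive, or cultured for 48 h with CD40L at 50 ng/ml and IL-4 at 10 ng/ml, or cultured for 48 h with LPS at 20 µg/ml and IL-4 at 10 ng/ml. Cd23-Cre is a BAC transgene that acts from the transitional stage of B cell development, so the deletion of Spi1 was directed to B cells, while Spib was deleted in every cell of the Spib-/- mice. The deletion of Spi1 was only partial in naive PU.1 SpiB DKO cells, where the study saw reads from the floxed exon, so these are not cells free of both factors.

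Notch receptors are cleaved when a neighbouring cell presents a Delta or Jagged ligand, and the freed intracellular domain enters the nucleus, binds the DNA-binding protein RBPJ and recruits a Mastermind co-activator (the products of Maml1, Maml2 and Maml3). In B cells the main receptor is Notch2, whose signal through RBPJ directs transitional cells to the marginal zone fate in place of the follicular fate. Dtx1 and Hes1 are induced by this signal, and marginal zone B cells are known by high CD21, CD1d and CD9.

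Total counts ran from 14231188 to 18194629 in naive libraries, from 9598674 to 61640683 with CD40L + IL-4 and from 22757630 to 73658850 with LPS + IL-4. Spib stood at 80.1-100 CPM in the 4 naive Spib-/- libraries and at 1350 CPM or more in the other naive libraries, and naive Spi1 was 53.3-59.5 CPM in PU.1 cKO against 155 and 174 CPM in control, so these groups followed their labels. Spi1 in naive PU.1 SpiB DKO was 103 and 110 CPM, between PU.1 cKO and control. With CD40L + IL-4 it was 32.5 and 25.6 CPM in PU.1 SpiB DKO against 84.8 and 108 CPM in control. With LPS + IL-4 it was 63.9 and 58.9 CPM in PU.1 SpiB DKO, near the 72.0 and 60.7 CPM of control and above the 44.2 and 41.2 CPM of PU.1 cKO. Counts per gene do not separate the floxed exon from the others, so the deletion itself cannot be read from them. From reads over that exon, the study saw full excision with CD40L + IL-4. It reported a deletion of much the same efficiency with LPS + IL-4. CPM here are read counts scaled to library size with TMM, within the 8 libraries of a stage unless said otherwise, and a gene was called at an adjusted p under 0.15 with a fold over 1.5. The 2 naive control libraries differed from each other, with Notch2 at 393 CPM in replicate 1 and 590 CPM in replicate 2, and calls that rest on one of them are named as such. In bulk libraries, fewer cells of a type and less RNA per cell cannot be told apart.

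The B cell marker Cd79a, which encodes a signalling chain of the B cell receptor, was at 2340-3160 CPM in naive cells, where the T cell gene Cd3e was at 0-0.632 CPM. The 6 pDC markers were all present in naive cells and summed to 80.5-161 CPM in control and 104-105 CPM for PU.1 cKO, against 563-672 CPM for SpiB KO and 770-834 CPM for PU.1 SpiB DKO, so the sums were higher in both Spib-/- groups. The 8 T cell markers moved alike, at 13.9-39.1 CPM in control against 365-388 CPM in PU.1 SpiB DKO, although Cd3d was at 0.316-1.23 CPM in all 8 naive libraries. The 10 macrophage markers summed to 11.6-22.3 CPM in naive control and 69-69.8 CPM in naive PU.1 SpiB DKO, with Mertk at 0 in both of the latter libraries. In the cultures the pDC genes Klk1 and Cd209d were at 0 in all 16 libraries, but the pDC sums were not. With CD40L + IL-4 the double mutant, highest among naive cells, had the lowest pDC sum (11.9-14.8 CPM). PU.1 cKO was next (18.6-23.1 CPM), while SpiB KO (38.8-56.3 CPM) overlapped control (46.3-59.4 CPM). With LPS + IL-4 control was lowest (6.71-10.9 CPM). The double mutant (11.7-12.5 CPM), PU.1 cKO (12.8-13.7 CPM) and SpiB KO (11.4-14.2 CPM) lay just above it. The 8 plasma cell markers summed to 1240-1350 CPM in LPS + IL-4 control, 1300-1400 CPM with SpiB KO, 1970-2220 CPM with PU.1 cKO and 2720 CPM in both PU.1 SpiB DKO libraries. With CD40L + IL-4 they summed to 1850-2200 CPM in control and 4070-4280 CPM for PU.1 SpiB DKO. The part of these cells in the changes below was not tested.

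Markers of the 2 mature B cell types also moved. The 10 marginal zone markers, a list without Cd9 and Cd1d1, summed to 1610-1640 CPM in naive control and 2100-2360 CPM in naive PU.1 SpiB DKO, where 5 of 10 were called, all higher, with a median log2 fold change of 0.56. SpiB KO stood at 2000-2050 CPM and PU.1 cKO at 1650-1680 CPM. In the cultures the calls of this list in PU.1 SpiB DKO were mixed. They were 2 higher and 3 lower with CD40L + IL-4 (background 18.3%) and 2 higher and 2 lower with LPS + IL-4 (20.2%). The CD40L + IL-4 sum was 1940-2090 CPM in PU.1 SpiB DKO and 1060-1320 CPM in control. In PU.1 cKO 1 was higher and 6 lower in each culture (13.5% and 10.5%). Mzb1 is in this list and among the plasma cell markers. The 6 follicular markers summed to 5060-5150 CPM in naive control and 2790-2860 CPM in PU.1 SpiB DKO, with 3 of 6 called, all lower (background 21.2% for both lists). Fcer2a, which encodes CD23, was among them at -2.99 ± 0.15 log2 units (adjusted p = 7.11e-06). Their part in the changes of Dtx1 and Cd9 in naive cells was not tested.

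Notch2 was the member that fell in PU.1 cKO as well as PU.1 SpiB DKO at every stage, although the fall in LPS + IL-4 PU.1 cKO cells stayed under the fold threshold. The gene lies on chromosome 3 at 98013538-98150367 (GRCm38), where a predicted gene, Gm40103, overlaps it. In naive cells Notch2 was at 393 and 590 CPM in control, against 307 and 302 CPM for PU.1 cKO, 291 and 297 CPM for SpiB KO and 256 and 279 CPM for PU.1 SpiB DKO. Every mutant library thus lay below both control libraries, and the PU.1 SpiB DKO libraries were the lowest of all. By edgeR, however, PU.1 SpiB DKO was not called against PU.1 cKO (-0.185 log2 units, adjusted p = 0.594) or SpiB KO (-0.135, adjusted p = 0.829). The log2 fold change was -0.69 ± 0.17 (SE) for PU.1 cKO (adjusted p = 0.0396), -0.74 ± 0.17 for SpiB KO (adjusted p = 0.0337) and -0.88 ± 0.17 for PU.1 SpiB DKO (adjusted p = 0.00616), from edgeR's quasi-likelihood test with Benjamini-Hochberg adjustment. Control replicate 2 set much of this size: without it the values were -0.37 (adjusted p = 0.136), -0.42 (adjusted p = 0.125) and -0.55 (adjusted p = 0.0149), all under the fold threshold. The PU.1 cKO call was also lost without either PU.1 cKO library (adjusted p = 0.202 and 0.184) and the SpiB KO call without SpiB KO replicate 1 (adjusted p = 0.221).

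With CD40L + IL-4, Notch2 was at 170 and 152 CPM in control, against 102 and 82.4 CPM for PU.1 cKO, 216 and 138 CPM for SpiB KO and 82.2 and 67.9 CPM for PU.1 SpiB DKO. The PU.1 cKO as well as PU.1 SpiB DKO libraries lay below control, whereas the SpiB KO libraries spread around it. PU.1 SpiB DKO was not called against PU.1 cKO by edgeR (-0.29 ± 0.22 log2 units, adjusted p = 0.64). The log2 fold change of Notch2 was -0.81 for PU.1 cKO (adjusted p = 0.0426) and -1.10 for PU.1 SpiB DKO (adjusted p = 0.00779), and it was lower by 1.24 ± 0.22 log2 units in PU.1 SpiB DKO than in SpiB KO (log2 fold change -1.24, adjusted p = 0.00517). The PU.1 cKO call was lost without control replicate 1 (adjusted p = 0.177) and without PU.1 cKO replicate 2 (adjusted p = 0.312).

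With LPS + IL-4, Notch2 was at 204 and 191 CPM in control, against 157 and 151 CPM for PU.1 cKO, 225 and 201 CPM for SpiB KO and 121 and 103 CPM for PU.1 SpiB DKO, which put the 4 genotypes in an order in which only control and SpiB KO overlapped. The change was -0.81 ± 0.10 log2 units in PU.1 SpiB DKO (adjusted p = 0.00031) and -0.36 ± 0.10 in PU.1 cKO (adjusted p = 0.0464), the latter below the fold threshold. SpiB KO differed from control by 0.11 ± 0.10 (adjusted p = 0.693). PU.1 SpiB DKO differed from PU.1 cKO by -0.46 ± 0.10 (adjusted p = 0.0137), also below the fold threshold. From SpiB KO it differed by -0.92 ± 0.10 (adjusted p = 0.000353), which was called. The change of Notch2 in PU.1 SpiB DKO differed from the sum of the changes in the single mutants by -0.57 ± 0.14 log2 units, which missed the threshold (adjusted p = 0.159) but passed it with DESeq2 (-0.56, adjusted p = 0.0234) and once the replicate number was a block (-0.57, adjusted p = 0.00906), and in these cultures the replicates behaved as pairs. In naive cells the difference from that sum had the opposite sign, at 0.555 ± 0.235 log2 units (adjusted p = 0.422). With CD40L + IL-4 it was -0.431 ± 0.306 (adjusted p = 0.898), and edgeR called neither. The effect of the PU.1 SpiB DKO genotype on Notch2 did not pass the test for a difference between any 2 stages, the stage differences being -0.21 ± 0.26, -0.01 ± 0.25 and 0.21 ± 0.26 log2 units.

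**Figure D1:**
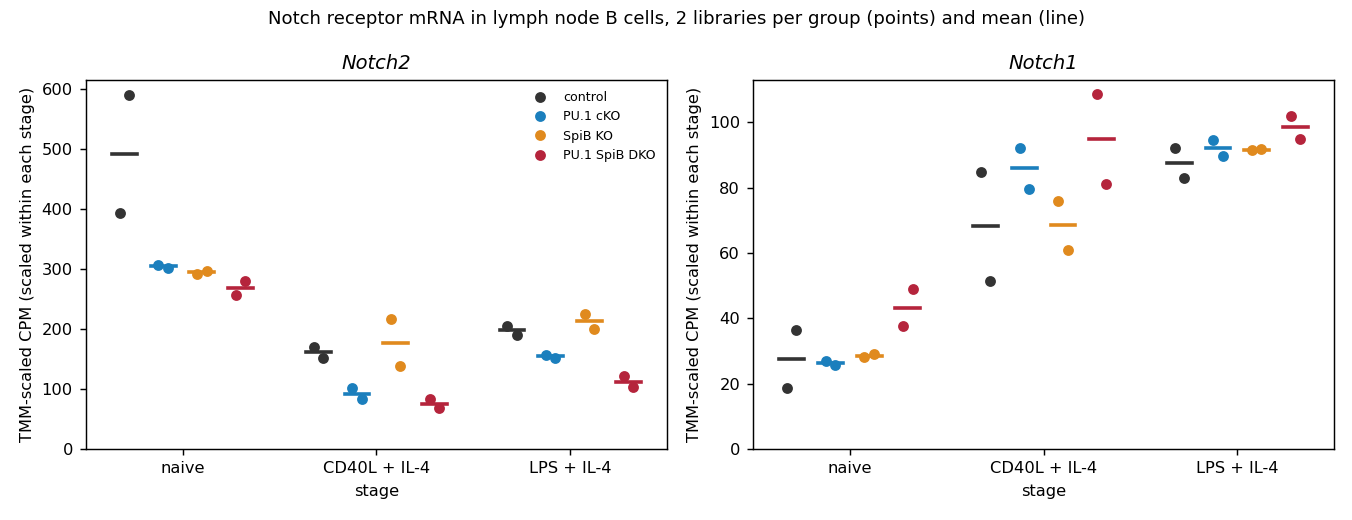
TMM-scaled CPM (y axis) of Notch2 (left) and Notch1 (right) in the 8 libraries of each stage (x axis), coloured by genotype, with each library as a point and the group mean as a line. Notch2 was lowest in PU.1 SpiB DKO at each stage, reaching 67.9 CPM with CD40L + IL-4, but was called against PU.1 cKO at none. Notch1 was higher in both cultures than in naive cells.

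The 250 bases before the Notch2 start are shown because this gene fell in both genotypes with deleted Spi1. They lie at chr3:98013288-98013537 on the plus strand of GRCm38.p6, and capitals mark GGAA or its complement TTCC, the core that PU.1 and SpiB contact.
Notch2: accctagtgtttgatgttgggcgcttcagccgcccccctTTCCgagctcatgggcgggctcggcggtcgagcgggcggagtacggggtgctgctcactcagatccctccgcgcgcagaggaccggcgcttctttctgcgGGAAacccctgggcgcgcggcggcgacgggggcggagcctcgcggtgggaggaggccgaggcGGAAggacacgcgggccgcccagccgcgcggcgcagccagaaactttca
3 GGAA cores stood in this window, and neither GAGGAA, a longer form of the PU.1 and SpiB site, nor TGGGAA, the RBPJ core, was found on either strand. Both of these longer words contain GGAA. Of 32851 RefSeq promoter windows of this length, 93.4% held GGAA, 23.3% held GAGGAA and 21.6% held TGGGAA, on either strand. RefSeq windows were matched for 7 of the 9 genes, 9 windows in all, of which 9 held GGAA, 4 held GAGGAA (in Notch1, Rbpj, Maml2 and Dtx1) and 4 held TGGGAA (in Rbpj, Maml2 and Cd9). The 2 Rbpj windows overlap.

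Notch1, the receptor better known from T cell development, behaved differently. It lies on chromosome 2 at 26457902-26503822, overlapping 0610009E02Rik and Mir6996. In naive cells it was at 18.6 and 36.4 CPM in control, against 26.9 and 25.6 CPM for PU.1 cKO, 28.1 and 29.1 CPM for SpiB KO and 37.6 and 48.9 CPM for PU.1 SpiB DKO. Only the PU.1 SpiB DKO libraries lay above both controls. The rise in naive PU.1 SpiB DKO cells was 0.65 ± 0.26 log2 units against control (adjusted p = 0.111) and 0.72 ± 0.26 against PU.1 cKO (adjusted p = 0.128). It was 0.24 (adjusted p = 0.369) without control replicate 1 and 0.44 (adjusted p = 0.371) without PU.1 SpiB DKO replicate 2. The difference from PU.1 cKO was not called without either PU.1 cKO library (adjusted p = 0.322 and 0.408) or without PU.1 SpiB DKO replicate 2 (adjusted p = 0.428). With CD40L + IL-4 Notch1 ranged from 51.4 to 109 CPM and with LPS + IL-4 from 83.1 to 102 CPM, and no genotype was called by edgeR in either culture. Without CD40L + IL-4 control replicate 1, Notch1 was called there in PU.1 cKO (0.75, adjusted p = 0.125) and PU.1 SpiB DKO (0.88, adjusted p = 0.0665).

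None of the nuclear genes was called against control by edgeR at any stage, although Maml1 lay at the fold threshold. Rbpj (chromosome 5, 53555779-53657445) encodes the protein that Notch needs to reach DNA, and it ranged from 28.8 to 36.8 CPM in naive cells, 40.1 to 62.9 CPM with CD40L + IL-4 and 41.1 to 49.8 CPM with LPS + IL-4. Its largest log2 fold change against control was 0.28 ± 0.16, in CD40L + IL-4 SpiB KO cells. Reads of the Rbpj pseudogenes can be hard to tell from Rbpj, so these values are less certain.

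Maml1 (chromosome 11, 50255634-50293131) was at 64.4 and 88.0 CPM in naive control and at 48.3-58.2 CPM in all 6 mutant libraries. Each mutant group lay below control, and the log2 fold change in PU.1 SpiB DKO was -0.58 ± 0.16 (adjusted p = 0.0285), just under the fold threshold. DESeq2 gave -0.60 (adjusted p = 0.00695) and the fit of all 24 libraries -0.59 (adjusted p = 0.0089), which were called. Without naive control replicate 1 all 3 mutant groups were called, at -0.80 for PU.1 SpiB DKO, -0.68 for SpiB KO and -0.71 for PU.1 cKO. Under LPS + IL-4 the direction was the other way, with 55.9 and 53.0 CPM for PU.1 SpiB DKO against no more than 44.9 CPM in control, a difference of 0.40 ± 0.10 log2 units (adjusted p = 0.0166) that again stayed below the fold threshold. The effect of the PU.1 SpiB DKO genotype differed between LPS + IL-4 and naive cells by 0.91 ± 0.21 log2 units (adjusted p = 0.00606).

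Maml2 (chromosome 9, 13296561-13709533, overlapping Phxr4 and Gm51666) was the most variable of the nuclear genes in naive cells, from 15.2 to 33.4 CPM, with control itself at 16.3 and 33.4 CPM. Without control replicate 1 it was called in SpiB KO (-1.07, adjusted p = 0.0583) and PU.1 SpiB DKO (-0.70, adjusted p = 0.137). With LPS + IL-4 it was at 15.6 and 14.2 CPM in control and at 12.2 and 9.67 CPM for PU.1 SpiB DKO. The groups did not overlap, and the log2 fold change of -0.44 ± 0.15 (adjusted p = 0.0437) was below the fold threshold, at -0.62 (adjusted p = 0.0346) without PU.1 SpiB DKO replicate 1. With CD40L + IL-4 it ranged from 2.93 to 9.72 CPM, with as few as 28 reads in a library.

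Dtx1, which encodes the E3 ubiquitin ligase Deltex1 and is a classical readout of Notch2 in marginal zone B cells, rose in naive PU.1 SpiB DKO cells and, under LPS + IL-4, in both Spib-/- genotypes. It lies on chromosome 5 at 120680203-120711867. In naive cells it was at 75.8 and 135 CPM in control, against 147 and 178 CPM for PU.1 cKO, 111 and 136 CPM for SpiB KO and 237 and 267 CPM for PU.1 SpiB DKO. The PU.1 SpiB DKO libraries stood clear of all 6 others. The increase in PU.1 SpiB DKO was 1.26 ± 0.23 log2 units against control (adjusted p = 0.00528) and 1.03 ± 0.23 against SpiB KO (adjusted p = 0.0636). It was 0.64 ± 0.23 against PU.1 cKO (adjusted p = 0.127). The call against control held without any one library, and those against SpiB KO and PU.1 cKO were lost without any one of their 4 libraries, at adjusted p of 0.17-0.418 and 0.217-0.463. PU.1 cKO exceeded control by 0.63 ± 0.23 (adjusted p = 0.143), a call that was lost without control replicate 1 (0.27, adjusted p = 0.328) and without either PU.1 cKO library (0.76, adjusted p = 0.276 and 0.46, adjusted p = 0.434). The pDC marker sum was 563-672 CPM in the SpiB KO libraries, whose Dtx1 differed from control by 0.23 ± 0.23 log2 units (adjusted p = 0.643), and by 0.71 (adjusted p = 0.0747) without control replicate 2.

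Under LPS + IL-4, Dtx1 was at 45.9 and 29.8 CPM in control, against 51.0 and 36.9 CPM for PU.1 cKO, 90.6 and 110 CPM for SpiB KO and 90.0 and 86.4 CPM for PU.1 SpiB DKO. Here the genotypes split by Spib, since both Spib-/- groups lay above both groups with Spib. The log2 fold change was 1.42 ± 0.21 in SpiB KO (adjusted p = 0.00832) and 1.23 ± 0.21 in PU.1 SpiB DKO (adjusted p = 0.00184), and PU.1 SpiB DKO differed from SpiB KO by -0.19 ± 0.20 (adjusted p = 0.587). Both calls held without any one of the libraries compared.

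With CD40L + IL-4, Dtx1 was at 34.8 and 49.4 CPM in control, against 78.2 and 60.7 CPM for PU.1 cKO, 118 and 57.5 CPM for SpiB KO and 57.5 and 39.3 CPM for PU.1 SpiB DKO. The 2 SpiB KO libraries differed by more than the control and PU.1 SpiB DKO groups did from each other. No genotype was called against control by edgeR, SpiB KO being higher by 1.06 ± 0.32 log2 units (adjusted p = 0.699) and PU.1 cKO by 0.72 ± 0.32 (adjusted p = 0.205). DESeq2 called both, at 1.06 (adjusted p = 0.0913) and 0.72 (adjusted p = 0.123), and the fit of all 24 libraries called PU.1 cKO (0.74, adjusted p = 0.116). The change in PU.1 SpiB DKO differed from the sum of those in the single mutants by -1.58 ± 0.45 log2 units. That was not called by edgeR (adjusted p = 0.239). PU.1 SpiB DKO was lower than SpiB KO by 0.86 ± 0.32 log2 units (log2 fold change -0.86, adjusted p = 0.116), which was -0.25 (adjusted p = 0.756) without SpiB KO replicate 1 and -0.62 (adjusted p = 0.469) without PU.1 SpiB DKO replicate 2. The effect of the PU.1 SpiB DKO genotype on Dtx1 was smaller with CD40L + IL-4 than in naive cells by a stage difference of -1.05 ± 0.43 log2 units, at the edge of the threshold (adjusted p = 0.15), and larger with LPS + IL-4 than with CD40L + IL-4 by 0.95 ± 0.43 (adjusted p = 0.145). Each of these fell outside the threshold when any of several single libraries was left out.

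**Figure D2:**
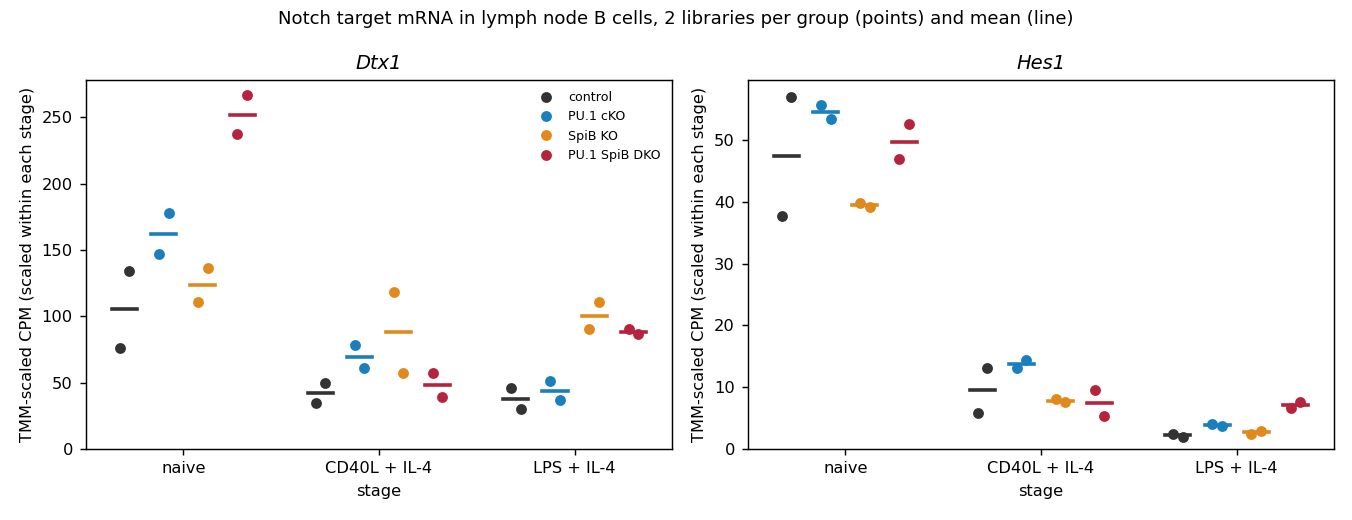
TMM-scaled CPM (y axis) of Dtx1 (left) and Hes1 (right) by stage (x axis) and genotype (colour), with each library as a point and the mean of the 2 libraries as a line. Dtx1 was highest in PU.1 SpiB DKO among naive cells (237 and 267 CPM) and in both Spib-/- groups under LPS + IL-4, and Hes1 was far lower in both cultures than in naive cells.

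Hes1, a basic helix-loop-helix repressor and the best known Notch target in many tissues, was called between genotypes only under LPS + IL-4. The gene lies on chromosome 16 at 30065357-30067796. In LPS + IL-4 cultures it was at 2.46 and 1.87 CPM in control, against 3.94 and 3.77 CPM for PU.1 cKO, 2.46 and 2.89 CPM for SpiB KO and 6.57 and 7.60 CPM for PU.1 SpiB DKO. The double mutant was highest and PU.1 cKO next, the groups in which Notch2 was lowest and next lowest. Hes1 rose by 0.86 ± 0.21 log2 units in PU.1 cKO (adjusted p = 0.0251) and by 1.74 ± 0.21 for the double mutant (adjusted p = 0.000274), and PU.1 SpiB DKO exceeded SpiB KO by 1.42 ± 0.20 (adjusted p = 0.00148). These levels rest on 57 to 292 reads a library. Without control replicate 2 the PU.1 cKO value was 0.65 (adjusted p = 0.154).

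In naive cells Hes1 ranged from 37.8 to 57.0 CPM and control alone spanned that whole range. With CD40L + IL-4 it ranged from 5.24 to 14.5 CPM, with control at 5.79 and 13.1 CPM and PU.1 SpiB DKO at 9.50 and 5.24 CPM. No genotype was called against control by edgeR at either stage, but without CD40L + IL-4 control replicate 2 PU.1 cKO was (1.25, adjusted p = 0.0966). The effect of the PU.1 SpiB DKO genotype was larger with LPS + IL-4 than in naive cells by 1.60 ± 0.38 log2 units (adjusted p = 0.00689) and than with CD40L + IL-4 by 2.01 ± 0.42 (adjusted p = 0.00438).

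Cd9 encodes a tetraspanin found on marginal zone B cells and plasma cells, and also on other blood cells. It lies on chromosome 6 at 125460266-125494760, overlapping Gm28809 and Gm26728. Among naive libraries it was at 13.9 and 7.82 CPM in control, against 21.1 and 13.2 CPM for PU.1 cKO, 10.9 and 11.49 CPM for SpiB KO and 48.0 and 39.8 CPM for PU.1 SpiB DKO. Only PU.1 SpiB DKO stood apart, with both libraries above every other. Its log2 fold change was 2.01 ± 0.28 against control (adjusted p = 0.00123), 1.36 ± 0.27 against PU.1 cKO (adjusted p = 0.0109) and 1.97 ± 0.28 against SpiB KO (adjusted p = 0.00793), and all 3 calls held without any one library. The SpiB KO libraries had Cd9 within the control range. Their pDC marker sum was 563-672 CPM, against 770-834 CPM in PU.1 SpiB DKO. The part of pDCs in the Cd9 values was not tested. The excess of PU.1 SpiB DKO over the sum of the single mutants was 1.31 ± 0.40 log2 units, which missed the threshold in edgeR (adjusted p = 0.264) and passed it in DESeq2 (1.32, adjusted p = 0.0482).

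Under LPS + IL-4, Cd9 was at 15.3 and 11.2 CPM in control, against 13.4 and 8.83 CPM for PU.1 cKO, 16.4 and 15.7 CPM for SpiB KO and 23.2 and 24.7 CPM for PU.1 SpiB DKO. The double mutant was highest, and the SpiB KO libraries also lay just above both controls. Cd9 rose by 0.87 ± 0.20 log2 units against control (adjusted p = 0.00998) and by 1.09 ± 0.20 against PU.1 cKO (adjusted p = 0.00755). Against SpiB KO the difference of 0.57 ± 0.20 (adjusted p = 0.081) was under the fold threshold, and with the replicate block it was 0.59 (adjusted p = 0.015) and was called. The excess over the single mutants was 0.80 ± 0.29 (adjusted p = 0.34), and 0.82 (adjusted p = 0.0802) with the block. The plasma cell marker sum was also highest in the PU.1 SpiB DKO libraries (2720 CPM), and it was 1970-2220 CPM in PU.1 cKO. All these libraries came from cells sorted as CD138-, and the marker list also holds genes such as Irf4, Xbp1 and Prdm1. The part of plasma cells in the Cd9 values was not tested.

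With CD40L + IL-4, Cd9 was at 15.2 and 31.3 CPM in control, against 17.9 and 17.7 CPM for PU.1 cKO, 26.4 and 17.5 CPM for SpiB KO and 37.8 and 33.6 CPM for PU.1 SpiB DKO. The PU.1 SpiB DKO libraries were the highest, but control spread over most of the range. The rise of 1.003 ± 0.30 log2 units against PU.1 cKO was called (adjusted p = 0.142) and was lost when any of the 4 libraries was left out, and the rise of 0.62 ± 0.30 against control was not called by edgeR (adjusted p = 0.196). That rise was called with voom (0.75, adjusted p = 0.119) and without control replicate 2 (1.23, adjusted p = 0.0241). The effect of the PU.1 SpiB DKO genotype on Cd9 was larger in naive cells than with CD40L + IL-4 (stage difference -1.36 ± 0.44 log2 units, adjusted p = 0.0596) or with LPS + IL-4 (-1.20 ± 0.43, adjusted p = 0.0633). Without CD40L + IL-4 control replicate 2 the first was -0.74 (adjusted p = 0.355), and without naive control replicate 2 they were -0.98 (adjusted p = 0.238) and -0.82 (adjusted p = 0.271). The first was also lost without CD40L + IL-4 PU.1 SpiB DKO replicate 2 (adjusted p = 0.155) or naive PU.1 SpiB DKO replicate 1 (adjusted p = 0.161), and the second without the latter (adjusted p = 0.174) or LPS + IL-4 PU.1 SpiB DKO replicate 1 (adjusted p = 0.154).

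The 250 bases before the Cd9 start are shown for comparison with Notch2, since Cd9 rose in the naive double mutant, where Notch2 fell. They lie at chr6:125494761-125495010 on the minus strand of GRCm38.p6, and capitals mark GGAA or TTCC with the flanking bases of TGGGAA where that word occurs.
Cd9: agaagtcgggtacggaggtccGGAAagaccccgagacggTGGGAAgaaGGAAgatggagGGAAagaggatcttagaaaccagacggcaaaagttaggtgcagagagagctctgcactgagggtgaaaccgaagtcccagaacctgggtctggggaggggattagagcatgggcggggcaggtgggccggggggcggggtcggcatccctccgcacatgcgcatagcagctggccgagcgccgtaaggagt
This window held 4 GGAA cores, 1 of them within the single TGGGAA.

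Cd1d1 encodes CD1d, which presents lipids to NKT cells and is abundant on marginal zone B cells. It lies on chromosome 3 at 86995834-87012358, and reads of its near copy Cd1d2 may not be told apart from its own. It was called against control only in naive PU.1 cKO cells, at 44.0 and 43.4 CPM against 19.6 and 20.1 CPM in control, 23.0 and 18.5 CPM in SpiB KO, and 27.6 and 20.6 CPM for PU.1 SpiB DKO. The PU.1 cKO libraries were thus above all others, the double mutant included. The log2 fold change of 1.14 ± 0.17 (adjusted p = 0.00526) held without any one library, and PU.1 SpiB DKO was lower than PU.1 cKO by 0.86 ± 0.17 (log2 fold change -0.86, adjusted p = 0.01). In the cultures Cd1d1 was low, at 2.43-6.29 CPM with CD40L + IL-4 and 1.64-2.41 CPM with LPS + IL-4, and no genotype was called by edgeR.

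**Figure D3:**
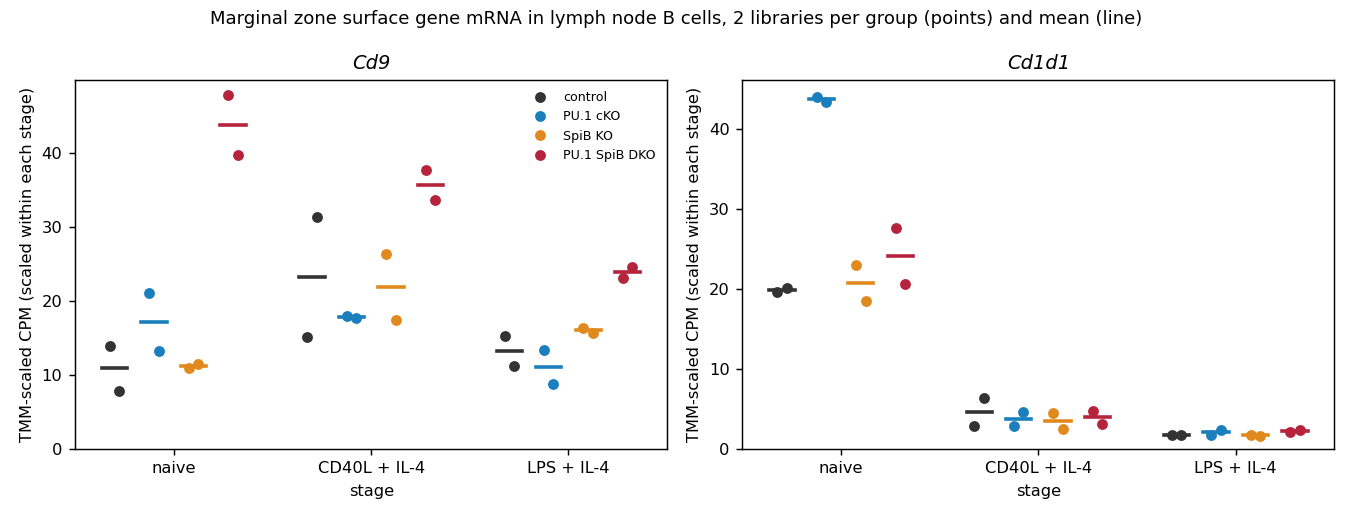
TMM-scaled CPM (y axis) of Cd9 (left) and Cd1d1 (right) by stage (x axis) and genotype (colour), with each library as a point and the mean of the 2 libraries as a line. Cd9 was highest in PU.1 SpiB DKO at all 3 stages, whereas Cd1d1 was highest in naive PU.1 cKO (44.0 and 43.4 CPM).

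Counted over the 9 genes, naive PU.1 SpiB DKO cells had 4 called against control (Notch1, Dtx1 and Cd9 higher, Notch2 lower), where 21.2% of all genes tested were called. The corresponding count was 3 in PU.1 cKO (background 10.7%) and 1 in SpiB KO (9.62%), 4 when PU.1 SpiB DKO was set against PU.1 cKO (12.9%) and 2 against SpiB KO (3.03%). With CD40L + IL-4 the count was 1 in PU.1 cKO (13.5%) and 1 in PU.1 SpiB DKO (18.3%), in each case Notch2, with 1 against PU.1 cKO (4.06%) and 2 against SpiB KO (15.3%). No member was called in CD40L + IL-4 SpiB KO cells by edgeR (background 0.134%), where 1 had an unadjusted p under 0.05, DESeq2 called 1 and voom 0. With LPS + IL-4 the count was 1 for PU.1 cKO (10.5%), 1 for SpiB KO (3.19%) and 4 for PU.1 SpiB DKO (20.2%), namely Notch2, Dtx1, Hes1 and Cd9, with 3 against PU.1 cKO (12.6%) and 2 against SpiB KO (12.8%). The median log2 fold change of the 9 genes in PU.1 SpiB DKO against control was 0.10, -0.07 and 0.32 at the 3 stages.

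The interaction of the 2 deletions was called for none of the 9 genes by edgeR in naive cells (background 0.936%) or in the cultures with CD40L + IL-4 (1.17%) and LPS + IL-4 (1.48%). An unadjusted p under 0.05 was seen for 3, 2 and 2 members, DESeq2 called 2, 1 and 1, and voom called 0 at each stage. The shares above are those of edgeR. Over all genes DESeq2 called 0.852-4.47 times as many as edgeR, by comparison, so its counts have no share beside them. The comparisons with control share the same 2 control libraries at a stage. The SpiB KO group alone lacked Cre, and naive PU.1 SpiB DKO cells kept part of Spi1. The interaction therefore also holds any effect of Cre, which was not tested.

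**Figure D4:**
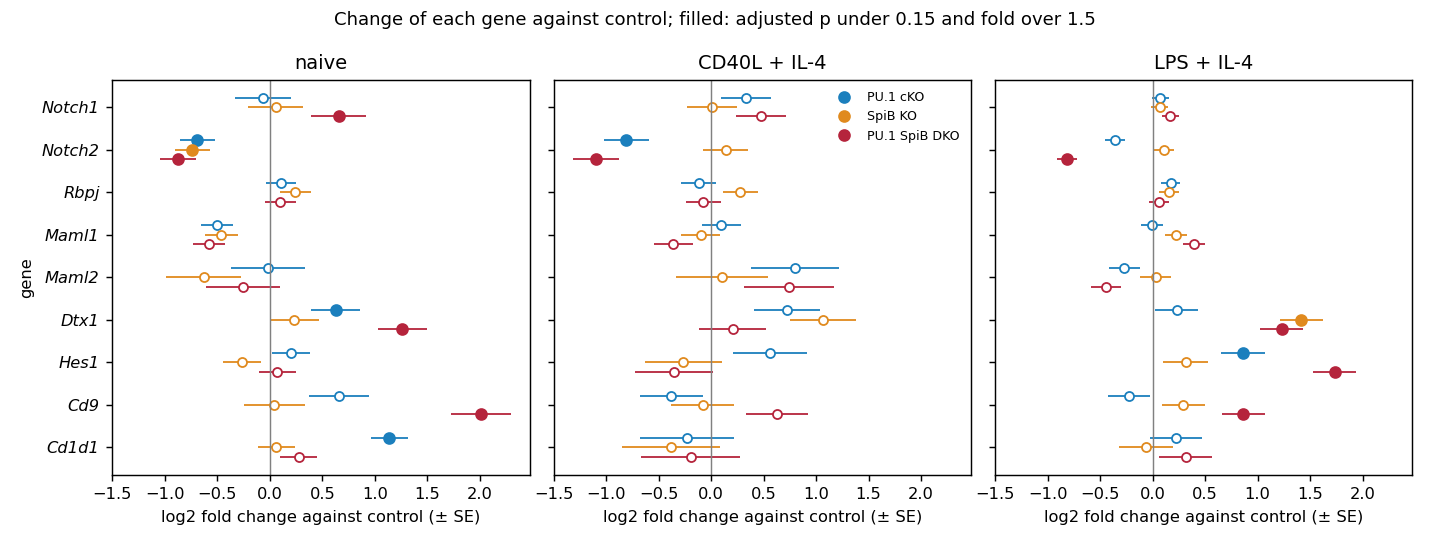
Log2 fold change against control (x axis, bars are standard errors) of the 9 genes (y axis) in PU.1 cKO, SpiB KO and PU.1 SpiB DKO, with a panel for each stage and filled points for called changes. Notch2 points to the left in PU.1 cKO as well as PU.1 SpiB DKO at each stage, and the largest rises are Cd9 in naive PU.1 SpiB DKO (2.01) and Hes1 in LPS + IL-4 PU.1 SpiB DKO (1.74).

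In control cells, activation went with less Notch2 and more Notch1. On the scale of all 24 libraries, control Notch2 went from 427 and 617 CPM in naive cells to 164 and 149 CPM with CD40L + IL-4 and 196 and 188 CPM with LPS + IL-4. Notch1 went from 20.3 and 38.07 CPM to 82.0 and 50.2 CPM and to 88.3 and 82.1 CPM. The naive and cultured libraries of the 2 receptors did not overlap. The log2 fold changes against naive were -1.74 ± 0.18 (adjusted p = 1.83e-07) and -1.44 ± 0.18 (adjusted p = 7.89e-07) for Notch2, and 1.18 ± 0.24 (adjusted p = 0.000325) and 1.55 ± 0.24 (adjusted p = 9e-06) for Notch1. Per transcript length, on the deposited log2 RPKM scale, the control mean was 5.53 ± 0.40 (SD) for Notch2 and 1.57 ± 0.60 for Notch1 in naive cells, and 3.89 ± 0.04 and 2.70 ± 0.47 with CD40L + IL-4. Notch2 therefore remained the more abundant receptor mRNA in control cells. In CD40L + IL-4 PU.1 SpiB DKO cells the same values were 2.78 ± 0.22 for Notch2 and 3.27 ± 0.30 for Notch1, an order that was not tested.

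The targets and Cd1d1 fell on activation. Control Dtx1 was 82.4 and 141 CPM in naive cells, 33.6 and 48.3 CPM with CD40L + IL-4 and 44.0 and 29.5 CPM with LPS + IL-4, with log2 fold changes of -1.45 ± 0.31 (adjusted p = 0.000599) and -1.61 ± 0.31 (adjusted p = 0.000111). Hes1 fell more steeply, from 41.1 and 59.6 CPM to 5.59 and 12.8 CPM and to 2.36 and 1.85 CPM, with log2 fold changes of -2.47 and -4.61. Cd1d1 fell from 21.3 and 21.04 CPM to 2.71 and 6.15 CPM and to 1.70 and 1.74 CPM, with log2 fold changes of -2.28 and -3.62. Each of these falls was called, and the naive libraries lay above all cultured ones. Hes1 and Cd1d1 were also lower with LPS + IL-4 than with CD40L + IL-4, by log2 fold changes of -2.14 ± 0.31 (adjusted p = 1.49e-05) and -1.33 ± 0.34 (adjusted p = 0.00343). The Cd1d1 value was -0.65 (adjusted p = 0.204) without CD40L + IL-4 control replicate 2.

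Among the nuclear genes, Maml2 was at 17.7 and 34.9 CPM in naive control, 4.57 and 2.87 CPM with CD40L + IL-4 and 14.97 and 14.1 CPM with LPS + IL-4. Its fall was called in both cultures, with log2 fold changes of -2.80 and -0.86, and the second was -0.29 (adjusted p = 0.522) without naive control replicate 2. Maml1 fell by 1.01 log2 units with LPS + IL-4 (adjusted p = 6.73e-06), and Rbpj rose by 0.51 ± 0.13 (adjusted p = 0.00343) with CD40L + IL-4 and 0.37 ± 0.13 (adjusted p = 0.0173) with LPS + IL-4, in both under the fold threshold. Control Cd9 was at 15.2 and 8.18 CPM in naive cells, 14.7 and 30.7 CPM with CD40L + IL-4 and 14.6 and 11.1 CPM with LPS + IL-4. Its rise with CD40L + IL-4 (0.95 ± 0.32, adjusted p = 0.0184) overlapped between groups and was 0.33 (adjusted p = 0.45) without CD40L + IL-4 control replicate 2 and 0.57 (adjusted p = 0.209) without naive control replicate 2. Between the cultures, Maml2 was higher with LPS + IL-4 than with CD40L + IL-4 by 1.94 ± 0.39 (adjusted p = 0.000468). Cd9 was lower there (log2 fold change -0.82 ± 0.31, adjusted p = 0.0359), at -0.20 (adjusted p = 0.68) without CD40L + IL-4 control replicate 2 and -0.63 (adjusted p = 0.226) without LPS + IL-4 control replicate 2. Of the 9 genes, 7 were called between CD40L + IL-4 and naive (background 48.8%), 7 between LPS + IL-4 and naive (63.9%) and 4 between LPS + IL-4 and CD40L + IL-4 (41.2%). Each stage was a separate set of libraries, so stage and library set cannot be told apart.

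**Figure D5:**
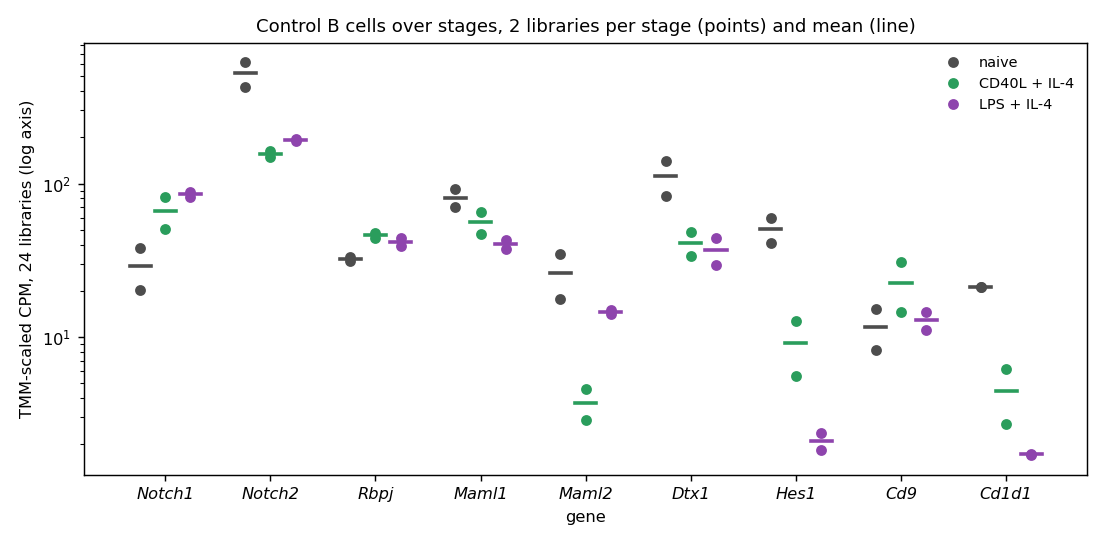
CPM of the 9 genes (x axis) in the 2 control libraries of each stage, scaled over all 24 libraries on a log axis (y axis), with points for libraries and lines for means. Hes1 and Cd1d1 show the steepest falls from naive cells to the cultures, and Notch1 rises while Notch2 falls.

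Differences between stages in the effect of the PU.1 SpiB DKO genotype were called for 2 of the 9 genes between CD40L + IL-4 and naive cells (background 16.8%), 3 between LPS + IL-4 and naive cells (29.6%) and 4 between LPS + IL-4 and CD40L + IL-4 (28.6%), by adjusted p alone. They concerned Dtx1, Hes1, Cd9, Maml1 and Maml2, and none concerned Notch1, Notch2, Rbpj or Cd1d1.

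Across the 24 libraries, the genes most like Notch2 by Pearson's r of log2 CPM, among 8738 genes with a mean of at least 10 CPM, were Gm20559 (r = 0.965), Slfn8 (r = 0.96) and 5430427O19Rik (r = 0.955). For Dtx1 they were Ptpn14 (r = 0.908), Gimap3 (r = 0.902) and Ifnar1 (r = 0.899). On the scale of all 24 libraries, Ptpn14 was like Dtx1 higher in both Spib-/- groups under LPS + IL-4. It was at 5.12-5.97 CPM there, against 0.338-1.26 CPM in the groups with Spib. Ptpn14 split the same way with CD40L + IL-4 (4.85-6.21 against 1.61-2.75 CPM), where Dtx1 in PU.1 SpiB DKO overlapped control. These values describe 24 libraries that share stages and preparation.

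Of 55 other genes of the Notch pathway, 49 were tested in naive cells, 47 with CD40L + IL-4 and 44 with LPS + IL-4. In naive PU.1 SpiB DKO cells 14 were called against control, 6 higher and 8 lower, beside 21.2% of all genes, and the list's median log2 fold change was -0.13 where that of all genes was 0.00217. The count was 20 without control replicate 1, 9 without control replicate 2, 6 without PU.1 SpiB DKO replicate 1 and 16 without PU.1 SpiB DKO replicate 2. These counts with a library left out have no share of all genes beside them. The receptor Notch3 was at 1.33 and 0.711 CPM in naive control, 25.8 and 22.6 CPM in SpiB KO and 33.3 and 34.1 CPM for PU.1 SpiB DKO. Notch3 rose by 5.03 ± 0.29 log2 units in the double mutant (adjusted p = 1.33e-05) and by 4.56 in SpiB KO (adjusted p = 7.49e-05). This rise moved with the pDC, T cell and macrophage markers of the Spib-/- libraries, and the part of such cells in it was not tested. The ligand Dll4 showed the same split, at 0.14 and 0.0711 CPM in control, 1.01 and 0.917 CPM in SpiB KO and 0.923 and 1.58 CPM for PU.1 SpiB DKO. The target Heyl was seen almost only in the double mutant, at 5.04 and 4.80 CPM against 0.14 and 0 CPM in control. It was at 0.255 and 0.379 CPM with PU.1 cKO and 0.0595 and 0.162 CPM with SpiB KO. Heyl passed the filter of 0.5 CPM in at least 2 libraries only through the group where it was high. Its call was thus favoured in advance. The same held for Dll4, which reached 0.5 CPM only in the Spib-/- groups and was at 0 CPM in PU.1 cKO.

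The other naive genes with the largest changes were the ligand Jag2, at 0.14 and 0.142 CPM in control and 1.97 and 1.90 CPM in PU.1 SpiB DKO, and Aph1c, a subunit of the gamma-secretase that cleaves Notch (1.89 ± 0.51, adjusted p = 0.0295). Dtx3, a relative of Dtx1, rose by 0.96 ± 0.23 log2 units (adjusted p = 0.0169). The ligand Dll1 fell by 1.53 log2 units (adjusted p = 0.0528), and Crebbp, an acetyltransferase co-activator, fell by 1.13 (adjusted p = 0.022) and in each single mutant too. The calls of Dll1 and Crebbp were lost without control replicate 2 (adjusted p = 0.256 and 0.12) and without PU.1 SpiB DKO replicate 1 (0.228 and 0.155), and that of Aph1c without the latter (0.174). The other 6 called genes all fell. Most of the 8 falls lost their call without control replicate 2 or without PU.1 SpiB DKO replicate 1. At an adjusted p under 0.05, 3 of the 8 falls and all 6 rises stayed called. With a mean log2 RPKM above 0 also required, 1 of the 6 rises and all 8 falls stayed called.

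In the cultures 7 pathway genes were called at each stage in PU.1 SpiB DKO against control, 3 higher and 4 lower with CD40L + IL-4 and 6 higher and 1 lower with LPS + IL-4. The shares of all genes called were 18.3% and 20.2%, so these counts were no higher than the background. Psen2, which encodes the catalytic presenilin of gamma-secretase, was at 46.5 and 56.4 CPM in CD40L + IL-4 control and 114 and 103 CPM in PU.1 SpiB DKO, and at 31.4 and 32.4 CPM against 68.0 and 69.3 CPM with LPS + IL-4. Its log2 fold change was 1.07 ± 0.16 (adjusted p = 0.00152) and 1.11 ± 0.10 (adjusted p = 5.68e-05), with PU.1 cKO called too at 0.75 (adjusted p = 0.015) and 0.78 (adjusted p = 0.00102). Dtx4 fell in both cultures by 2.92 and 2.57 log2 units in PU.1 SpiB DKO, and by 2.03 and 2.18 in PU.1 cKO. In LPS + IL-4 it was at 10.4 and 10.9 CPM in control and 1.37 and 2.26 CPM in PU.1 SpiB DKO.

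Jag2 rose with LPS + IL-4 from 0.692 and 0.306 CPM to 8.04 and 5.63 CPM (3.94 ± 0.42 log2 units, adjusted p = 0.000137). It rose with CD40L + IL-4 by 1.56 ± 0.51 (adjusted p = 0.0677), a call lost without PU.1 SpiB DKO replicate 1 (0.82, adjusted p = 0.369) and without control replicate 2 (1.14, adjusted p = 0.242). With CD40L + IL-4 the co-repressor gene Ctbp2 was at 0.176 and 0.105 CPM in control and 1.40 and 1.05 CPM for PU.1 SpiB DKO. Like Heyl in naive cells, Ctbp2 passed the filter only through the PU.1 SpiB DKO libraries. The co-repressor Tle4 fell by 0.91 ± 0.19 log2 units (log2 fold change -0.91, adjusted p = 0.0104), Dtx3l by 0.79 and the protease gene Adam17 by 0.72, and the last pair lost their calls without PU.1 SpiB DKO replicate 2 (adjusted p = 0.167 and 0.155). With LPS + IL-4 the Notch target Nrarp, a feedback inhibitor, was at 7.78 and 4.84 CPM in control and 12.3 and 12.2 CPM in PU.1 SpiB DKO (0.99 ± 0.24, adjusted p = 0.0112). Tle3 rose by 0.88, Numbl by 0.83 and Furin, whose protease processes the receptors, by 0.75 log2 units. Furin was under the fold threshold at 0.58 without PU.1 SpiB DKO replicate 1 and at 0.53 without control replicate 2. The list's median log2 fold change was 0.01 with CD40L + IL-4 and 0.20 with LPS + IL-4, where those of all genes were 0.00155 and 0.00756. The count with CD40L + IL-4 was 12 without control replicate 2 and 4 without PU.1 SpiB DKO replicate 2, and that with LPS + IL-4 was 11 without control replicate 1.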

How the data were processed

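mRNA expression was measured by RNA-seq in 24 libraries of sorted lymph node B cells, prepared with an Illumina TruSeq RNA kit. The authors aligned reads with Subread to GRCm38, kept uniquely mapped reads and deposited raw counts per gene from featureCounts over RefSeq exons. They also deposited log2 RPKM values per library after quantile normalization in voom, in 2 sets, one for naive and CD40L + IL-4 libraries (13569 genes) and one for LPS + IL-4 libraries (12634 genes). Strand setting is not given in the sources used here. Uniquely mapped reads undercount genes with near copies.

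After a filter of 0.5 CPM in at least 2 libraries, edgeR 4.0.16 in R 4.3.3 was run on the counts of each stage, 8 libraries a fit, with TMM factors and its quasi-likelihood test. Stages and stage differences were tested in a fit of all 24 libraries. Genes were called at a Benjamini-Hochberg adjusted p under 0.15 over all genes tested and a fold over 1.5, and interactions and stage differences by adjusted p alone. The thresholds follow the study's methods. The 517 entries without a symbol (0.1616% of counts) stayed in the library totals. Alternatives were RLE, DESeq2 1.42.0, voom in limma 3.58.1, no filter, a replicate block, all libraries in one fit, Rn45s removed, stricter thresholds and each library left out. Fits were tested on simulated data. An exact permutation test of 2 against 2 libraries cannot go below p = 0.333. The sources do not say whether replicates came from separate mice, so p-values measure only the spread between these libraries. Each value of a member rests on at least 28 reads a library.

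Same-numbered replicates deviated together with LPS + IL-4 (correlations of 0.386-0.514 over all 6 pairs of genotypes), so the block is given beside results there. It was -0.07 to 0.266 with CD40L + IL-4 and 0.092-0.25 in naive cells, where the numbers were not taken as pairs. The 9 genes and all lists were chosen with earlier results of these data known. Other pathway genes were named by size of change in PU.1 SpiB DKO against control among those called, at most 8 a stage, and the genes most like Notch2 and Dtx1 were the 3 with the highest r. Positions and promoter windows came from RefSeq (GRCm38.p6).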

Additional observations from a re-analysis of the deposited data

Results flagged for a closer look

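The effect of the PU.1 SpiB DKO genotype differed between stages, by the interaction of genotype and stage in the fit of all 24 libraries, in 9 cases. Positive values mean a larger log2 fold change at the first stage named, and the 2 control libraries of a stage enter every case of that stage.

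Between CD40L + IL-4 and naive cells the difference was -1.05 ± 0.43 for Dtx1 (adjusted p = 0.15, at the threshold) and -1.36 ± 0.44 for Cd9 (adjusted p = 0.0596). Between LPS + IL-4 and naive cells it was 0.91 ± 0.21 for Maml1 (adjusted p = 0.00606), 1.60 ± 0.38 for Hes1 (adjusted p = 0.00689) and -1.20 ± 0.43 for Cd9 (adjusted p = 0.0633). Between LPS + IL-4 and CD40L + IL-4 it was 0.68 ± 0.21 for Maml1 (adjusted p = 0.0385), -1.26 ± 0.55 for Maml2 (adjusted p = 0.124), 0.95 ± 0.43 for Dtx1 (adjusted p = 0.145) and 2.01 ± 0.42 for Hes1 (adjusted p = 0.00438).

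The Hes1 values and the Maml1 value against naive cells kept their call without any one library. The Maml1 value against CD40L + IL-4 was 0.42 (adjusted p = 0.218) without CD40L + IL-4 control replicate 1, 0.56 (adjusted p = 0.178) without PU.1 SpiB DKO replicate 2 of that stage and 0.58 (adjusted p = 0.181) without LPS + IL-4 control replicate 2. The Maml2 value lost its call without 6 of the 8 libraries, taken one at a time (adjusted p from 0.173 to 0.3). The Dtx1 values moved to between -0.72 and -1.14 and to between 0.67 and 0.98 where they lost their call.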

How the results depend on the processing

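Over 2943 values of a gene in a comparison under an alternative setting, 2775 stayed on their side of the threshold, 81 lost a call, 87 gained one and no called value turned its sign. Values not called in either fit turned their sign in 125 cases.

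The number of members called changed as follows, with the main count first. Without the filter on low counts, SpiB KO naive went from 1 to 2, CD40L + IL-4 PU.1 cKO from 1 to 3, SpiB KO from 0 to 1, PU.1 SpiB DKO from 1 to 3 and the count of PU.1 SpiB DKO set against PU.1 cKO from 1 to 2, and the interactions went from 0 to 4 (naive), 2 (CD40L + IL-4) and 3 (LPS + IL-4). With DESeq2 the interactions went from 0 to 2, 1 and 1, CD40L + IL-4 PU.1 cKO from 1 to 2 and SpiB KO from 0 to 1. With voom, CD40L + IL-4 PU.1 SpiB DKO went from 1 to 2 and the stage difference of LPS + IL-4 against CD40L + IL-4 from 4 to 2. With all 24 libraries in the fit, the CD40L + IL-4 counts of PU.1 cKO, and of its comparison with PU.1 SpiB DKO, went from 1 to 2 and the interaction from 0 to 1. With an adjusted p under 0.05, naive PU.1 SpiB DKO set against PU.1 cKO went from 4 to 2 and against SpiB KO from 2 to 1, the CD40L + IL-4 counts from 1 to 0 and from 2 to 1, and the stage differences from 2 to 0 (CD40L + IL-4 against naive) and from 4 to 2 (LPS + IL-4 against CD40L + IL-4). With the replicate block, which rests on pairing shown only for LPS + IL-4, the interactions went from 0 to 3, 1 and 2, the CD40L + IL-4 counts of PU.1 SpiB DKO and also PU.1 cKO from 1 to 2 and the stage difference of CD40L + IL-4 against naive from 2 to 1. Besides those named beside their results, the block changed no other call of a member with LPS + IL-4. The number of all genes called also moved under these settings, by the ratios given at the end of this section. The share of all genes was not set beside each count, so a higher count is not a result about the members. The causes were not tested.

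Leaving out each library gave 1-4 called members for naive PU.1 cKO, 0-3 for SpiB KO, 2-3 for PU.1 SpiB DKO set against PU.1 cKO, 1 against SpiB KO and 0-5 for the interaction. With CD40L + IL-4 it gave 1-2 for PU.1 cKO, 0-1 for SpiB KO, 1-2 for PU.1 SpiB DKO, 0 for its comparison with PU.1 cKO, 1-2 for that with SpiB KO and 0-1 for the interaction. With LPS + IL-4 it gave 0-1 for PU.1 cKO and 0-1 for the interaction, and for the stage differences 0-3 (CD40L + IL-4 against naive) and 1-4 (LPS + IL-4 against CD40L + IL-4). A group left with 1 library is assumed to vary like the others. The share of all genes called in each of these fits was not set beside the counts.

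The number of all genes called moved by over 1.5 times in 7 of 24 comparisons without the filter, with ratios to the main count of 0.968-11.4, in 7 with the block (0.998-12.1), in 4 with DESeq2 (0.852-4.47), in 1 with voom (0.503-1.13), in 6 of 18 with all libraries (0.457-4.29), in 15 with the stricter adjusted p (0.309-0.946) and in 7 of 18 with a mean log2 RPKM above 0 (0.558-0.879). That last threshold lowered the Notch pathway count in PU.1 SpiB DKO from 14 to 9 in naive cells and from 7 to 4 with CD40L + IL-4, and the stricter adjusted p from 14 to 9 in naive cells.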
